A study of Homo sapiens with 56 samples.

Results

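The HOX genes measured here were 27 of 38 listed genes of the HOXA, HOXB, HOXC and HOXD clusters, taken from 18377 genes on the arrays. Each of the 27 was read by 1 probe set annotated to that gene alone, and the values were averaged over the 2 arrays of each line. They were HOXA2, HOXB1 to HOXB9, HOXB13, HOXC5, HOXC8 to HOXC13, HOXD1, HOXD3, HOXD4 and HOXD8 to HOXD13. The other 11 genes, HOXA3 to HOXA7, HOXA9, HOXA10, HOXA11, HOXA13, HOXC4 and HOXC6, had no probe set of their own in the annotation used and were not analysed here, so the HOXA cluster was represented by HOXA2 alone.

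The study profiled 28 ovarian cancer cell lines, for which the labels give no treatment, on 56 gene expression arrays, 2 per line, and ordered the lines by an EMT score, a measure of how far a line lies between an epithelial and a mesenchymal state. The score used here was rebuilt from these arrays, and its values differ from those the study gave. The lines A2780, COLO720E, EFO21, HEY, HEYC2, OVCAR2, OVCAR3, OVCAR5 and PEO1 were grown in RPMI. CAOV3, CH1, DOV13, OAW28, OAW42, OVCA420, OVCA432, OVCA433, SKOV3 and TYKNU were grown in DMEM. FUOV1, JHOS2, JHOS3, JHOS4, OV17R, OV56 and OV7 were grown in DMEM/F12, TOV112D in MCDB105/M199 and UWB1.289 in RPMI/MEGM. Nothing in the labels says whether its 2 arrays came from separate cultures, so p-values between lines measure only the spread between these arrays, which may be technical.

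HOX genes encode homeodomain transcription factors that lie in 4 clusters on different chromosomes. In the embryo they are switched on in the order in which they lie along a cluster, low-numbered genes in anterior and high-numbered genes in posterior tissue, and genes with the same number in different clusters are paralogues with related homeodomains. The female reproductive tract is patterned by posterior HOX genes, and ovarian tumours often regain HOX expression. Trithorax and polycomb proteins keep the active or silent state of a cluster through cell division.

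The HOXD promoters are shown first because the highest line changed at the HOXD9 to HOXD10 interval, from OVCA432 for each gene from HOXD1 to HOXD9 to OV7 for HOXD10 and HOXD11. The sides were not separate in every line, since OV7 also had HOXD8 called higher. Each window runs from 250 bases before to 50 bases after the RefSeq transcription start in GRCh38.p14, all on the plus strand of chromosome 2, and capitals mark CG dinucleotides. HOXD4 (chr2:176151300-176151599) and HOXD8 (chr2:176129455-176129754) belong to the run that was high in OVCA432. HOXD10 (chr2:176116528-176116827) and HOXD11 (chr2:176107030-176107329) belong to the pair that was high in OV7 and OVCAR2.
HOXD4: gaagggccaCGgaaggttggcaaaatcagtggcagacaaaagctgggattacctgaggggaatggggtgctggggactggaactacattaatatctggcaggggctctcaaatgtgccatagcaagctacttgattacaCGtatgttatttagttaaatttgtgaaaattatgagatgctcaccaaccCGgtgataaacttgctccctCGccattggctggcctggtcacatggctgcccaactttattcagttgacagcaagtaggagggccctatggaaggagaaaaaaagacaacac
HOXD8: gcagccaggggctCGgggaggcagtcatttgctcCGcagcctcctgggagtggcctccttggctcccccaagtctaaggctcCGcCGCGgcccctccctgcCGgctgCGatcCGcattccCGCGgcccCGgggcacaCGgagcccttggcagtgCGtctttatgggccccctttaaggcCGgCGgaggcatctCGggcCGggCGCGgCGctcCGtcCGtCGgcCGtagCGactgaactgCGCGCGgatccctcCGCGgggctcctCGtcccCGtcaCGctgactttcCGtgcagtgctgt
HOXD10: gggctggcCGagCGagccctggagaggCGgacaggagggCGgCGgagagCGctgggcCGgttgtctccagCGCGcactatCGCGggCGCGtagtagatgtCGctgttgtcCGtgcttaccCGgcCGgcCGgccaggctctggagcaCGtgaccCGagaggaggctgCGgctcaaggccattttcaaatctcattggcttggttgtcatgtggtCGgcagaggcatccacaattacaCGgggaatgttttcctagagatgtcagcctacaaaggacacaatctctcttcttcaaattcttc
HOXD11: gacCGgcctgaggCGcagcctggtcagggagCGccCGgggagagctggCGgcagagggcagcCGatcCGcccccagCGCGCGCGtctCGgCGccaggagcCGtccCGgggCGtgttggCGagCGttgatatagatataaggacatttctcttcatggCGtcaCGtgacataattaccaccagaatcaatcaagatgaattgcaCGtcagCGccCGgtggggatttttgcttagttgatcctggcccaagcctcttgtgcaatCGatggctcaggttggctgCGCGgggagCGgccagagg
The HOXD4 window held 4 CG dinucleotides, fewer than the median of 14 over 35116 RefSeq promoters of the same length. The HOXD8 window held 34, and 84.4% of all promoters had fewer. HOXD10 held 23 and HOXD11 held 27. The promoters of HOXD4 and HOXD8, which were high in the same line, thus differed widely in CG content. RefSeq promoter entries were found for 11 of the 27 genes.
The letters TGATNNAT, a core bound by HOX and PBX proteins together, were searched on both strands and occurred in 3 of the 11 promoters (HOXA2, HOXB1 and HOXD11) against 7.4% of all promoters. The letters CCAAT occurred on either strand in 9 of the 11, against 34.6% of all promoters, and TATAAA in 1, HOXD13, against 11.5%. HOXD8 and HOXD11 were the members with no CCAAT in the window. These matches describe letters in a window and nothing about binding.

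The clusters also hold microRNA genes, and 4 of them had a probe set, which reads the gene and not the mature microRNA. MIR10A lies between HOXB4 and HOXB5, MIR10B between HOXD4 and HOXD8, MIR196A1 between HOXB9 and HOXB13, and MIR196A2 between HOXC9 and HOXC10. The mature products are shown because these microRNA families lie at matching places in several HOX clusters, with the seed (bases 2 to 8) in capitals. The 5p sequences of MIR196A1 and MIR196A2 were identical.
hsa-miR-10a-5p (MIR10A): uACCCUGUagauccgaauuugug
hsa-miR-196a-5p (MIR196A1 and MIR196A2): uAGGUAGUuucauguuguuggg

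Across the series, values ran from 1.35 to 14.89 log2 units. As a floor on each array, the 95th percentile of 339 olfactory receptor genes, receptors of the nasal epithelium, was taken, and a gene was counted as above it in a line when both arrays passed. This floor lay at 5.1 to 5.67 on 53 arrays and at 6.17 to 6.38 on 3 arrays (HEYC2 replicate 1, OV56 replicate 2 and OVCA420 replicate 1), whose values were also less spread (SD 1.84 to 1.89, against 2.09 to 2.32). Those 3 arrays stood apart from their duplicates, and where they set the lowest or highest line of a gene described here, the value without them is given as well. The epithelial keratins KRT7, KRT8 and KRT18 lay above the floor in all 28 lines, EPCAM in 25 and CDH1 in 26, with EPCAM as low as 4.57 in HEYC2 and CDH1 as low as 3.88 in SKOV3. Of 5 leukocyte markers, PTPRC, CD3E and LYZ lay above the floor in 0 lines, while CD14 did in 26 and CD68 in 28 (6.44 to 10.73).

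By this floor 577 of 756 gene and line pairs were counted, 10 of the 27 HOX genes in all 28 lines and HOXD12 in none. The same share over all genes was not computed. Genes such as HOXB1 passed in every line while hardly varying, so each gene was described against its own median over lines.

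The HOX genes differed widely in how much they varied between lines. The median SD of line means was 0.53 log2 units over the 27 genes against 0.42 over all genes, and 6 genes fell in the top 10% of all genes by SD while 7 fell below the median of all genes. By cluster, the median percentile of SD was 91.4 for HOXA2 alone, 85.8 for the 10 HOXB genes, 64.6 for the 7 HOXC genes and 52.6 for the 9 HOXD genes. In a limma F test over the 28 lines, 24 of the 27 genes (88.9%) differed between lines at an adjusted p under 0.05, beside 65.7% of all genes. The exceptions were HOXB1 (adjusted p = 0.679), HOXC12 (adjusted p = 0.237) and HOXD12 (adjusted p = 0.31). Without the 3 arrays that stood apart, HOXC12 passed (adjusted p = 0.000336), while HOXB1 and HOXD12 did not. HOXB1, HOXC12 and HOXD12 were also the genes whose duplicates tracked each other least, with r of replicate 1 with replicate 2 from -0.11 to 0.11 over the 28 lines, where HOXB2 reached 0.97.

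The heat map of all 27 genes shows that high values often came in runs along a cluster. Taking a gene as raised in a line when both arrays lay at least 1 log2 unit above that gene's median over lines, a measure chosen after the values were seen, 57 of 756 gene and line pairs were raised (7.54%), spread over 19 lines. In 35 of the 57, a measured neighbour in the same cluster was raised in the same line as well. Of the other 22, 4 were HOXA2, which has no measured neighbour, and 18 stood alone. Falls of the same size were fewer, 20 of 756 pairs in 12 lines, of which 19 were HOXB genes and 10 were HOXB2. Genes with a median near the floor had little room for such a fall. The counts of raised and fallen pairs were not set beside the same measure over all genes.

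**Figure D1:**
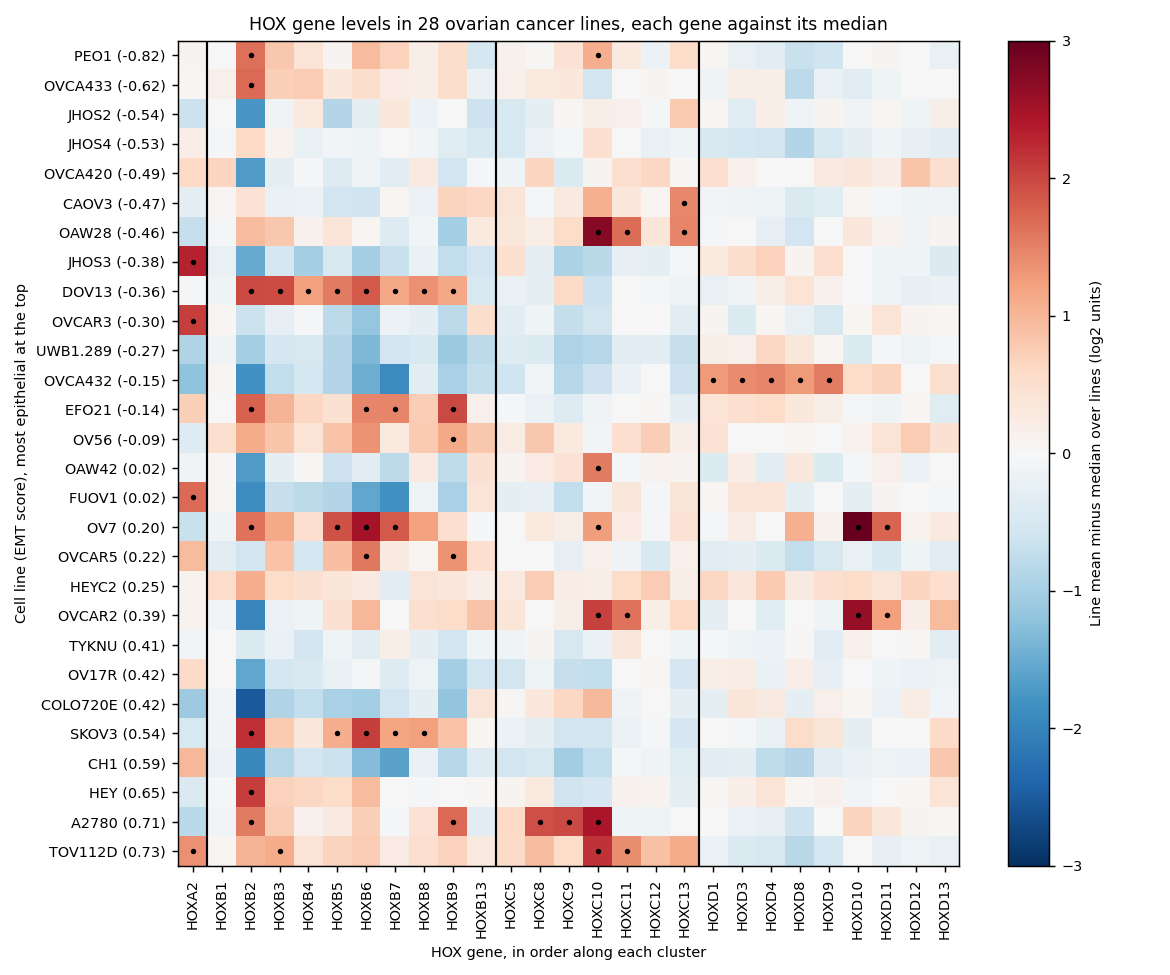
Line mean of each HOX gene minus its median over the 28 lines, in log2 units (colour), with genes along each cluster from left to right, lines ordered by EMT score from epithelial to mesenchymal, and dots where both arrays lay at least 1 unit above the median. Raised genes form runs such as HOXB2 to HOXB9 in DOV13 and HOXD1 to HOXD9 in OVCA432, and they occur at both ends of the EMT order.

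HOXB2, a gene of hindbrain patterning in the embryo, was the most variable member. Its line means ran from 5.09 in COLO720E through a median of 7.61 to 9.80 in SKOV3, with an SD between lines of 1.59 against 0.28 between duplicate arrays. The lines fell on either side of a sparse middle, with 11 lines under 6.7, 14 lines over 8 and 3 lines between. Against the mean of the other lines it was called higher in 12 lines and lower in 10. HOXB6, a thoracic gene of the middle of the cluster, ran from 5.23 in FUOV1 through 6.78 to 9.28 in OV7. SKOV3 (8.86) and DOV13 (8.63) followed OV7, and the lowest group held OVCA432 (5.31), UWB1.289 (5.45) and CH1 (5.48). HOXB9, the last gene before the gap to HOXB13, ran from 6.24 in COLO720E through 7.43 to 9.42 in EFO21, with A2780 at 9.12 and OVCAR5 at 8.78. Among the other HOXB genes, HOXB3 ran from 5.46 in COLO720E (without the 3 arrays, from 5.21 in OVCA420) through 6.36 to 8.31 in DOV13, HOXB4 from 6.20 in JHOS3 through 7.20 to 8.42 in DOV13, and HOXB5 from 4.90 in COLO720E through 5.87 to 7.79 in OV7. HOXB7 ran from 5.56 in OVCA432 through 7.46 to 9.29 in OV7 and HOXB8 from 5.44 in UWB1.289 through 5.89 to 7.25 in DOV13. The ends of the cluster varied less. HOXB1 ran only from 5.86 in OVCAR5 through 6.21 to 6.85 in OVCA420, and without the 3 arrays its highest line was OVCA433 at 6.37 and its SD fell from 0.21 to 0.10. HOXB13, a gene of the prostate and hindgut, ran from 5.33 in UWB1.289 (without the 3 arrays, from 5.25 in OVCA420) through 6.11 to 6.98 in OVCAR2.

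HOXA2, which sets the identity of the second pharyngeal arch, ran from 4.76 in OVCA432 through 5.97 to 8.28 in JHOS3. It was raised in OVCAR3 (8.04), FUOV1 (7.66) and TOV112D (7.35) as well. JHOS3, OVCAR3 and FUOV1 had no raised gene of any other cluster. In the line contrasts HOXA2 was higher in 4 lines and lower in 3.

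In the HOXC cluster, HOXC10, a gene of the lumbar body and hindlimb, varied most. Its line means ran from 5.00 in UWB1.289 through 5.86 to 8.60 in OAW28, and A2780 (8.30), TOV112D (8.03) and OVCAR2 (7.91) came next. HOXC13, a gene of hair and nail, ran from 5.09 in UWB1.289 through 5.79 to 7.24 in OAW28, level with CAOV3 at 7.23. HOXC9 ran from 4.94 in CH1 (without the 3 arrays, from 4.88 in OVCA420) through 5.98 to 7.95 in A2780, with no other line above 6.61. HOXC8 ran from 5.58 in CH1 through 6.05 to 7.98, again in A2780, and HOXC11 from 4.94 in UWB1.289 through 5.26 to 6.94 in OAW28. HOXC5 ran from 4.58 in OVCA432 through 5.17 to 5.77 in A2780 and passed the floor in 6 lines. HOXC12 ran from 5.85 in OVCAR5 through 6.30 to 7.17 in TOV112D.

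In the HOXD cluster most genes were raised in 1 or 2 lines. HOXD10, a posterior gene of the trunk and hindlimb, ran from 5.01 in UWB1.289 through 5.42 to 8.54 in OV7. OVCAR2 (8.03) was the only other line in which it was raised. HOXD8 ran from 5.95 in JHOS4 through 6.84 to 8.11 in OVCA432, with OV7 next at 7.91. HOXD4 ran from 6.18 in CH1 through 6.95 to 8.40 in OVCA432. OVCA432 was also the highest line for HOXD1 (6.55 in JHOS4 through 7.01 to 8.28), HOXD3 (4.70 in JHOS4 through 5.23 to 6.64) and HOXD9 (6.51 in PEO1 through 7.11 to 8.65). HOXD11 ran from 5.21 in OVCAR5 through 5.66 to 7.41 in OV7 and HOXD13, the gene of the digits and external genitalia, from 6.22 in JHOS3 through 6.64 to 7.58 in OVCAR2. HOXD12 ran from 4.48 in JHOS4 through 4.73 to 5.57 in OVCA420, or to 5.02 in OV56 without the 3 arrays, and was above the floor in both arrays of no line.

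To ask which lines carried many shifted HOX genes, each line was set against the mean of the other 27 in limma, and a gene was called at an adjusted p under 0.05 and a difference of at least 1 log2 unit. OV7 had 8 of 27 genes called higher, beside 4.41% of all genes. Its largest difference was in HOXD10, with arrays at 8.19 and 8.90 (3.01 ± 0.20, SE, adjusted p = 1.38e-13). HOXB6 followed at 9.48 and 9.08 (2.39 ± 0.23). The others were HOXB2, HOXB5, HOXB7, HOXB8, HOXD8 and HOXD11. DOV13 also had 8 genes called higher, beside 4.56% of all genes, and they were HOXB2 to HOXB9 without a gap. They ranged from HOXB2 at 9.56 and 9.61 (2.09 ± 0.20, adjusted p = 1.75e-09) to HOXB9 at 8.72 and 8.48 (1.18 ± 0.18, adjusted p = 8.41e-06). Both ends of that cluster lay outside the run, HOXB1 at 6.10 and 6.08 and HOXB13 at 5.52 and 5.72, and HOXC10 was called lower in that line (-1.03 ± 0.23). TOV112D had 5 genes called higher, beside 3.38% of all genes, namely HOXA2, HOXB2, HOXC10, HOXC11 and HOXC13, and HOXC10 led with 8.05 and 8.02 (1.91 ± 0.23, adjusted p = 8.33e-08). A2780 had 5, beside 3.41% of all genes, and they were HOXB2, HOXB9, HOXC8, HOXC9 and HOXC10. Its HOXC8 mean was 7.98 and its HOXC9 arrays lay at 7.96 and 7.93, while HOXC11, the next gene, lay at 5.11 and 5.14. The run in A2780 thus ended between HOXC10 and HOXC11, whereas in OAW28 and OVCAR2 HOXC10 and HOXC11 were raised together.

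**Figure D2:**
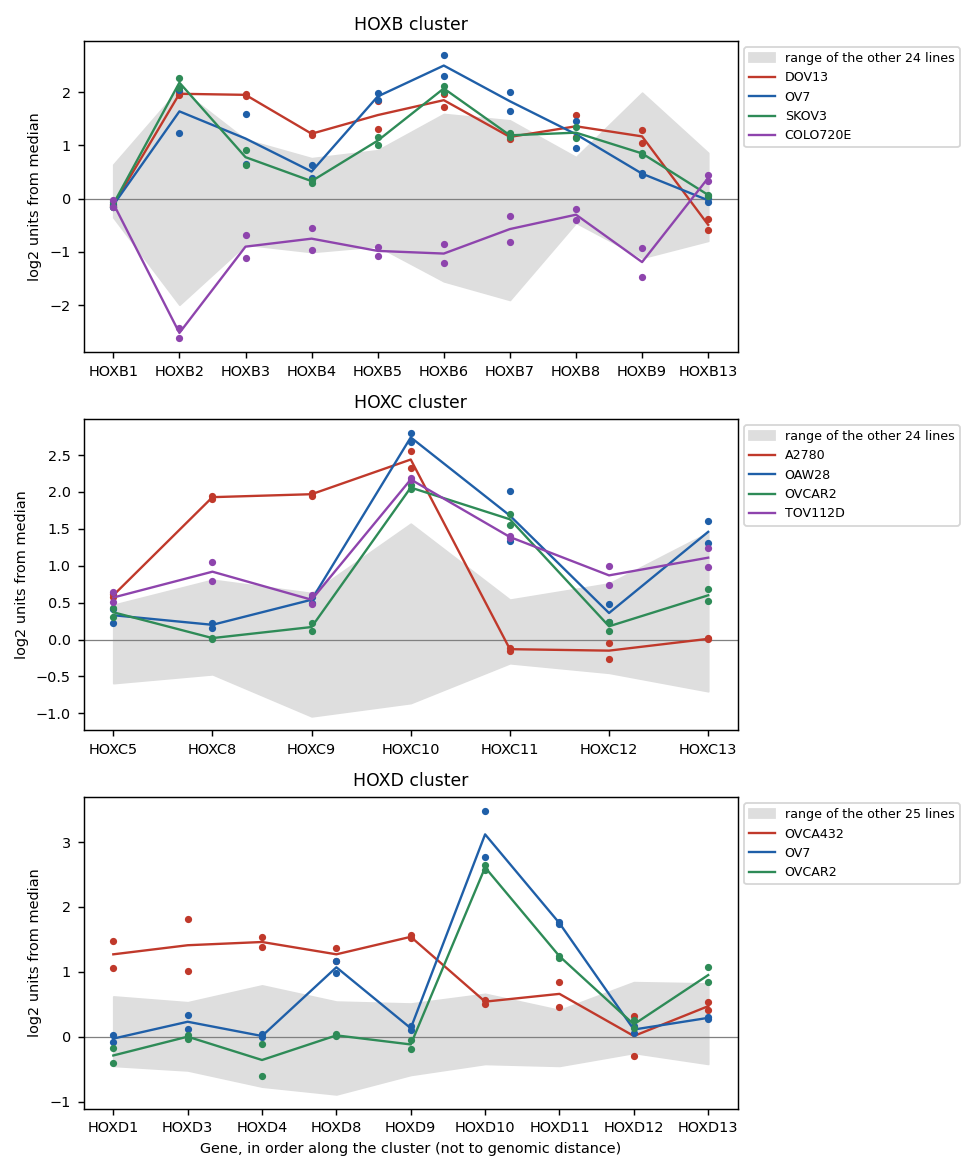
Distance of each gene from its median over lines (log2 units, vertical axis) along the HOXB, HOXC and HOXD clusters, with lines for the mean and points for the 2 arrays of the named cell lines and grey for the range of all other lines. DOV13 stays above 1 unit from HOXB2 to HOXB9, OVCA432 from HOXD1 to HOXD9, and OV7 and OVCAR2 peak at HOXD10.

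The lines OVCA432, SKOV3, OVCAR2 and OAW28 were described after their values were seen. OVCA432 had 5 genes called higher, beside 3.46% of all genes, and all lay in the run HOXD1, HOXD3, HOXD4, HOXD8 and HOXD9. HOXD9 lay at 8.68 and 8.63 (1.62 ± 0.19, adjusted p = 4.5e-08), and the neighbouring HOXD10 lay at 5.93 and 5.99. OVCAR2 had 4 genes called higher, beside 3.95% of all genes, namely HOXC10, HOXC11 and their paralogues HOXD10 and HOXD11. Its HOXD9 arrays lay at 7.06 and 6.92, below the median. In HOXD, OVCA432 thus had the genes from HOXD1 to HOXD9 raised and OVCAR2 the interior pair HOXD10 and HOXD11, while HOXD12 (0.15, adjusted p = 0.817 in limma) and HOXD13 (0.89, adjusted p = 0.00606) of OVCAR2 stayed under the 1-unit limit. In the other direction OVCAR2 had HOXB2 called lower (-2.02 ± 0.20, adjusted p = 2.14e-09). OAW28 had 4 genes called higher, beside 3.84% of all genes, HOXB2, HOXC10, HOXC11 and HOXC13, while HOXC12 lay at 6.54 and 6.78 and HOXB9 was called lower (-1.09 ± 0.18). SKOV3 had 5 genes called higher, beside 4.49% of all genes, all in HOXB (HOXB2 and HOXB5 to HOXB8).
Markers of other cell types also differed between these lines, and a marker was counted when both arrays lay at least 1 unit above its median. Of 6 fibroblast markers, 4 were so raised in TOV112D, 3 each in OV7 and A2780, 2 in SKOV3, 1 in OVCAR2 and 0 in DOV13, OVCA432 and OAW28, with LUM highest in OVCAR2 (10.37) and DCN highest in OV7 (9.03). The 3 in A2780 were COL1A2, COL3A1 and DCN, but DCN passed the floor in 2 lines only, OV7 and TOV112D. Other lines had raised fibroblast markers too, with 3 of 6 in OV17R, 2 in OV56 and 2 in CH1. Of 3 mesothelial markers, 2 were raised in DOV13, the line of the HOXB2 to HOXB9 run. They were MSLN and LRRN4 (9.0, its highest value), and the mean of the 3 markers lay 1.92 above their medians there. OVCA432, SKOV3 and OAW28 had 1 of 3 each. Of 10 epithelial and ovarian tumour markers, 6 were raised in OVCA432, 5 each in DOV13 and OAW28 and 1 in OV7. Of 5 leukocyte markers, CD14 and CD68 were raised in OV7 and CD68 in OVCAR2. Of 5 endothelial markers, CDH5 was raised in DOV13 and KDR in SKOV3. Their part in the HOX values was not tested.

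Low HOX values were mostly HOXB values, but genes with a median near the floor had little room to fall. Medians were 5.17 for HOXC5, 5.23 for HOXD3 and 5.26 for HOXC11, against 7.61 for HOXB2, though HOXD9 had 7.11. The part of the starting level was not tested. CH1 had 6 genes called lower, beside 2.23% of all genes, namely HOXB2, HOXB3, HOXB6, HOXB7, HOXC9 and HOXC10, with HOXB2 at 5.62 and 5.75 (-1.95 ± 0.20, adjusted p = 5.34e-09). COLO720E also had 6, beside 4.45% of all genes, HOXA2, HOXB2, HOXB3, HOXB5, HOXB6 and HOXB9. Its HOXB2 arrays, at 5.19 and 4.99, gave the lowest line mean of the series. The COLO720E count was 3 when its replicate 1 was left out. OVCA432 had 5, beside 3.01% of all genes, HOXA2, HOXB2, HOXB6, HOXB7 and HOXB9, in the line whose HOXD1 to HOXD9 were high. HOXB7 there lay at 5.77 and 5.35 (-1.91 ± 0.16, adjusted p = 3.69e-11). UWB1.289 had 4, beside 1.98% of all genes, HOXA2, HOXB6, HOXB9 and HOXC10. FUOV1 also had 4, HOXB2, HOXB6, HOXB7 and HOXB9, beside 5.97% of all genes, and JHOS3 had 4, HOXB2, HOXB4, HOXB6 and HOXC10, beside 1.39%. With no minimum difference, 12 genes were lower in CH1 beside 7.64% of all genes, 13 in OVCA432 beside 8.02% and 13 in UWB1.289 beside 8.98%, while 11 were higher in TOV112D beside 9.13% and 8 in OVCAR2 beside 9.8%. JHOS4 and TYKNU were the lines with no HOX gene called in either direction.

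To describe how the genes moved together, Pearson r was computed over the 28 line means, which share arrays and processing, and is given without a test. Over the 23 pairs of measured neighbours the median r was 0.70, against 0.43 for 79 other pairs in the same cluster, 0.25 for 17 paralogue pairs and 0.08 for 232 other pairs across clusters. Adjacent protein-coding genes over the whole array had a median r of 0.26 over 16830 pairs, or 0.35 over the 3578 pairs in which both SDs were at least 0.5. The 10 HOX neighbour pairs that met the same SD limit had a median r of 0.74 and none under 0.65. Most of these pairs lay within HOXB2 to HOXB9, the rest within HOXC8 to HOXC11 and none in HOXD, so this value mainly describes HOXB.
HOXB was one block from HOXB2 to HOXB9. HOXB5 and HOXB6 had the highest r of the neighbours, 0.94, and HOXB2 and HOXB9 at the ends of the block still had 0.68. HOXB1 and HOXB2 had r of 0.07 and HOXB9 and HOXB13 had 0.24. In HOXC the neighbour values ran from 0.37 for HOXC12 and HOXC13 to 0.75 for HOXC9 and HOXC10.
HOXD fell into parts. HOXD1, HOXD3, HOXD4, HOXD8 and HOXD9 had neighbour values of 0.63 to 0.81, HOXD9 and HOXD10 had 0.17, and HOXD10 and HOXD11 had 0.92. The first of these rested in part on OVCA432, without which HOXD1 and HOXD3 had 0.46 and HOXD3 and HOXD4 had 0.70. The last was 0.84 without OV7. OVCAR2, the other line in which HOXD10 and HOXD11 were raised, was then still included. The value without both lines was not computed, so how far it rested on them is unknown. The paralogue pair with the highest r, HOXC12 and HOXD12 at 0.63, had 0.07 without the 3 arrays that stood apart, and HOXB1 and HOXD12 went from 0.81 to -0.01.

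**Figure D3:**
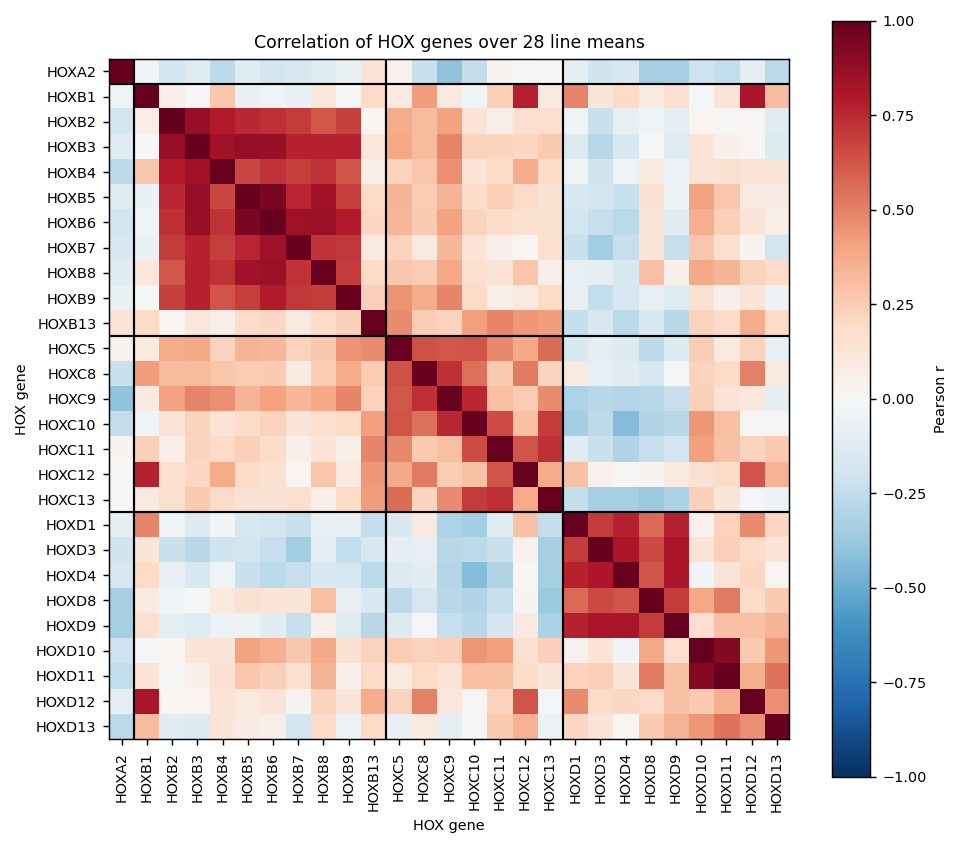
Pearson r (colour) between each pair of HOX genes over the 28 line means, genes in cluster order on both axes and black lines between clusters. A block from HOXB2 to HOXB9 stands out, HOXD splits between HOXD9 and HOXD10 (r of 0.17), and most values between clusters are near 0 (median 0.08).

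Averaged over members with an SD of at least 0.5, which were HOXB2 to HOXB9 (8 genes), 5 HOXC genes and, for HOXD, HOXD8 and HOXD10 alone, the HOXB and HOXC profiles had r of 0.31 over the 28 lines, HOXB and HOXD 0.20 and HOXC and HOXD 0.12, and HOXA2 had -0.18, -0.22 and -0.31 with HOXB, HOXC and HOXD. Outside the clusters, STAT6, a mediator of interleukin signals, had the highest r with the HOXB profile (0.77), followed by the lysosomal regulator TFE3 (0.73). HAPLN1 (0.71) and CDH12 (0.66) were most like HOXC, SPAG17 and DOK5 (both 0.63) most like HOXA2, and CRLF2 (0.80) and GLDN (0.74) most like the mean of HOXD8 and HOXD10. Those 2 genes had r of only 0.39 with each other and lie on either side of the HOXD9 to HOXD10 interval. The values of their mean with CRLF2 and GLDN fell to 0.58 and 0.45 without OV7. All these outside genes were picked as the highest r among all genes, and such a search favours high values by itself. SPAG17 had line means of at most 4.47, under the lowest floor of 5.1.

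Genes lying within and beside the clusters were then compared with their HOX neighbours. MIR10A had r of 0.78 with HOXB4 and 0.81 with HOXB5 over the 28 lines and was highest in DOV13, the line with the HOXB2 to HOXB9 run. MIR10B was highest in OVCA432, the line with the HOXD1 to HOXD9 run, and had r of 0.66 with HOXD4, or 0.40 without that line. MIR196A2 had r of 0.61 with HOXC10 and was highest, like it, in OAW28. MIR10A, MIR10B and MIR196A2 lay above the floor in 0 of 28 lines, with line means of at most 4.73, 4.10 and 5.14. MIR196A1 had 0.41 with HOXB9 and was highest in TOV112D (7.10). The antisense gene HOXA-AS2, above the floor in 3 lines, had 0.83 with HOXA2, while HOXB-AS3 had 0.34 with HOXB5, 0.29 with HOXB6 and 0.09 with HOXB7. Of the 6 such genes measured, 5 differed between lines, beside 65.7% of all genes, HOXB-AS3 being the other (adjusted p = 0.172).
Of 20 flanking genes measured, 14 differed between lines, near the 65.7% of all genes. The 3 with the largest SD were SKAP2 (5.34 in A2780 through 8.79 to 10.59 in OVCAR5), SNX10 (5.54 in OV7 through 7.36 to 9.22 in COLO720E) and CBX5 (7.66 in OVCA420 through 10.67 to 11.13 in A2780). Without the 3 arrays CBX5 was 9.30 in OVCA420 and its SD fell from 0.78 to 0.45, and SNX10 was highest in OV56 (9.26). SKAP2, beside HOXA, had r of 0.50 with HOXA2. Beside HOXB, SNX11 had 0.53 and SKAP1 had 0.02 with HOXB1, and TTLL6 had 0.56 and PRAC1 0.51 with HOXB13. TTLL6 lay above the floor in 0 lines, PRAC1 in 1 and SKAP1 in 4. PRAC1 did not differ between lines in the limma F test (adjusted p = 0.608). Beside HOXC, CALCOCO1 had 0.03 with HOXC13, and SMUG1 had -0.10 and CBX5 had 0.03 with HOXC5. Beside HOXD, MTX2 had -0.26 with HOXD1, and EVX2 had 0.24 and LNPK had -0.11 with HOXD13. Several of these values rested on the 3 arrays that stood apart, without which SNX11 had -0.04, SKAP1 had -0.25, TTLL6 had 0.40, PRAC1 had 0.63, CBX5 had 0.29, MTX2 had 0.08, EVX2 had -0.17 and LNPK had 0.22 with the same genes, while SKAP2 had 0.51 with HOXA2.

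The rebuilt EMT score ran from -0.823 in PEO1 to 0.729 in TOV112D, and no HOX gene of the set is in the signature behind it. In limma, 0 of 27 HOX genes rose along the score, beside 0.19% of all genes, and 0 of 27 fell, beside 0.903% of all genes, at an adjusted p under 0.05. At an unadjusted p under 0.05 there were also 0 of 27, against 9.74% of all genes. These shares of all genes include the 382 signature genes from which the score was built, which are tied to it by construction. Slopes ran from -0.26 ± 0.23 log2 units per unit of score for HOXC13 to 0.43 ± 0.46 for HOXB6 (SE), with a median of 0.08. The lowest adjusted p was 0.58, for HOXC8 (0.38 ± 0.20). Spearman's rho ran from -0.231 to 0.235 over the 28 lines. A p above the threshold does not show that HOX levels and the score are unrelated, and the SE of HOXB2, the most variable gene, was 0.65 per unit of score. Runs of raised genes lay at scores as different as -0.358 (DOV13), 0.205 (OV7) and 0.713 (A2780).

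**Figure D4:**
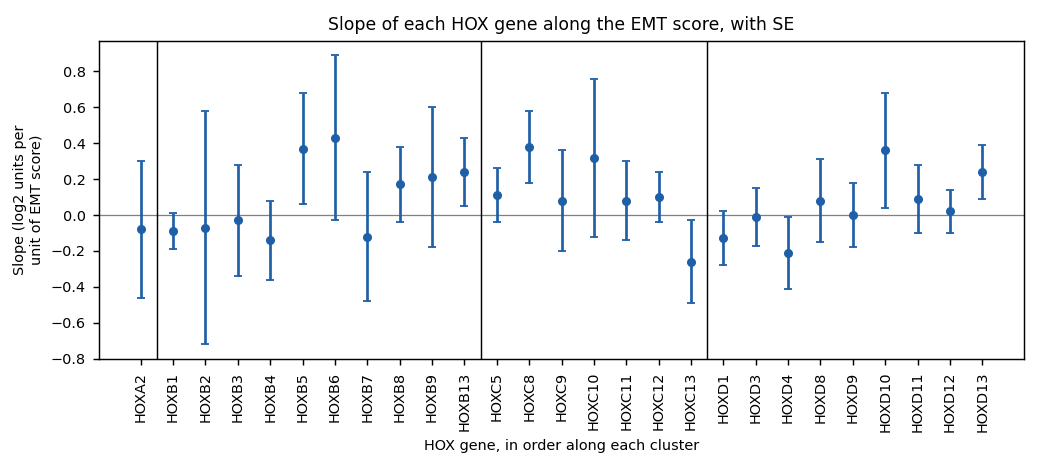
Slope of each HOX gene along the EMT score in log2 units per unit of score (points) with its standard error (bars), from limma over 28 line means. The slopes lie between -0.26 and 0.43, and most bars reach 0.

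Growth medium was the other label that varied. In a limma F test over 26 lines grown in 3 media (DMEM for 10 lines, RPMI for 9, DMEM/F12 for 7), 0 of 27 HOX genes differed at an adjusted p under 0.05, beside 0% of all genes, and 0 of 27 at an unadjusted p under 0.05, against 1.9% of all genes. The lowest unadjusted p was 0.198, for HOXB9, with a mean of 7.92 over the RPMI lines, 7.27 over the DMEM lines and 7.21 over the DMEM/F12 lines. Medium and line identity cannot be told apart within a line.

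Genes that act with or on the HOX clusters were read from fixed lists. Among 7 measured TALE homeodomain cofactors, which bind DNA beside HOX proteins, 5 differed between lines, beside 65.7% of all genes, and 0 passed the limma test along the score (2 at an unadjusted p under 0.05, beside 9.74% of all genes). MEIS1 ran from 5.74 in OV56 (without the 3 arrays, from 5.76 in OAW42) through 7.69 to 10.71 in OVCA432, MEIS2 from 5.20 in OVCA432 through 6.91 to 9.48 in COLO720E, and PBX3 from 6.32 in EFO21 through 7.23 to 9.21 in A2780. OVCA432, with the HOXD1 to HOXD9 run, was thus the highest line for MEIS1 and the lowest for MEIS2. A2780 had all 3 at least 1 unit above their medians.
Of 18 trithorax, polycomb and H3K27 demethylase genes, 15 differed between lines, beside the same 65.7%, and 0 passed along the score in limma (0 at an unadjusted p under 0.05). The most variable were EZH2, the polycomb methyltransferase (7.10 in OVCA420 through 9.41 to 10.07 in TYKNU), its partner JARID2 (6.89 in OVCA420 through 8.08 to 10.24 in CH1) and the trithorax subunit ASH2L (8.02 in OVCA420 through 9.98 to 11.01 in JHOS3). OVCA420, the low line in each, holds 1 of the 3 arrays that stood apart. Without them the lowest values were 7.54 in OVCA432 for EZH2, 7.06 in TYKNU for JARID2 and 8.87 in FUOV1 for ASH2L. The SD of ASH2L then fell from 0.66 to 0.53, behind PHC1 (0.62) and KDM6A (0.54).
Of 14 genes of retinoid signalling, CDX and CTCF, inputs that act on HOX clusters in the embryo, 11 differed between lines, beside the same 65.7%, and 0 passed along the score in limma (2 at an unadjusted p under 0.05, beside 9.74%). The retinaldehyde dehydrogenase ALDH1A1 ran from 3.75 in UWB1.289 through 5.18 to 12.17 in TOV112D, ALDH1A3 from 6.15 in OVCAR3 through 8.16 to 12.43 in PEO1, and the retinoid carrier CRABP2 from 5.04 in UWB1.289 through 7.10 to 9.74 in OAW28. Without the 3 arrays OVCA420 was the highest line for ALDH1A1 (12.40) and the lowest for CRABP2 (4.89). UWB1.289, low for both genes, was the lowest line for 6 members of the HOX set, or 5 without those arrays. It was also the lowest line for genes of other lists, among them COL1A1, LYZ and EVX1. Its ALDH1A1 and CRABP2 means, 3.75 and 5.04, lay under the lowest floor of 5.1. So did its means of HOXC10 (5.00), HOXC11 (4.94), HOXC13 (5.09) and HOXD10 (5.01), while HOXB8 (5.44) and HOXB13 (5.33) lay over it. A link between these genes and HOX levels was not tested.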

How the data were processed

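The deposited table holds log2 expression values for 28869 probe sets on 56 Affymetrix gene arrays, which the authors made by RMA (affy 1.42.3 per the submitters' processing notes), so background, quantile normalization and probe summary were already applied. The array files name no genome build. Of the probe sets, 19310 named 1 gene in the platform annotation used, 1752 named several and 7807 named none. For each of 18377 genes, the brightest probe set by mean over arrays was used, and HEY and HEYC2 were kept as separate lines. The HOX genes and all gene lists were chosen with earlier results of these data known. Samples were grouped by the cell line in their titles. Tests used limma 3.58.1 in R 4.3.3 (trend and robust) with Benjamini-Hochberg adjustment over all genes and were tested on simulated data. The EMT score was rebuilt as the signed Kolmogorov-Smirnov statistic between 200 mesenchymal and 182 epithelial signature genes, each centred on its median over lines.
Genes were named by rule: all HOX members, the 3 most variable of each cluster and list, and the 2 outside genes most like each cluster. Array numbers limit the precision. Replicate numbers did not pair samples: deviations of arrays with the same number had r from -0.887 to 0.871 (median -0.000247).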

Additional observations from a re-analysis of the deposited data

Results flagged for a closer look

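Within each of the 3 larger media, the highest or lowest line of each HOX gene was set against the gap to its nearest neighbour as a share of the range. Of 81 groups tested, 19 held a line that stood apart by this measure (23.5%). The rule flags about 1 in 20 independent groups by chance. These groups share lines and many of their genes vary together, so 23.5% cannot be set against that rate. The share over all genes was not computed.
Among the DMEM lines, OVCA432 stood apart in HOXD3 (6.64), HOXD4 (8.40), HOXD9 (8.65) and HOXD11 (6.32), and OAW28 in HOXC11 (6.94). Among the DMEM/F12 lines, OV7 stood apart in HOXD10 (8.54, with the next line at 5.52) and HOXD11 (7.41). Among the RPMI lines, OVCAR2 stood apart in HOXC11 (6.89), HOXD10 (8.03) and HOXD11 (6.90), and A2780 in HOXC8 (7.98) and HOXC9 (7.95).
The other 7 flags lay in the lines that hold the 3 arrays that stood apart from their duplicates. OVCA420 was high in HOXB1 (6.85) and HOXD12 (5.57), OV56 in HOXB1 (6.68), HOXC12 (7.04) and HOXD12 (5.49), and HEYC2 in HOXB1 (6.75) and HOXD12 (5.37). Without those arrays the same values were 6.22 and 4.78 in OVCA420, 6.05, 6.36 and 5.02 in OV56, and 6.10 and 4.81 in HEYC2.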

How the results depend on the processing

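The number of HOX genes that differed between lines stayed at 24 with the replicate number as a block and lay between 24 and 26 when each of the 56 arrays was left out in turn, and no HOX gene passed along the EMT score or by medium under any alternative run. With no minimum difference the counts rose to 11 genes higher in TOV112D, 8 higher in OVCAR2, 12 lower in CH1, 13 lower in OVCA432 and 13 lower in UWB1.289, and the shares of all genes rose too (9.13%, 9.8%, 7.64%, 8.02% and 8.98%). The count lower in COLO720E was 3 without its replicate 1 and 5 without its replicate 2. The replicate block changed none of the line counts. The median r of neighbours, 0.70, was 0.66 after a further quantile normalization, 0.65 with replicate 1 left out and 0.69 with replicate 2 left out. It ran from 0.65 to 0.72 when each line was left out in turn, an alternative chosen after seeing the data, and was lowest without OVCA432. Of 756 gene and line pairs, 577 lay above the floor, and 420 with the 99th percentile. In all, 327 of 337 recomputed values were labelled as unchanged. For counts this label allowed a moderate change, such as that from 577 to 420 pairs. For the median r of neighbours it meant a move smaller than the spread between replicate sets. The cause of the changes in the other values was not tested.
With 2 arrays per line a single array can carry a line's value, 3 arrays stood apart, most HOXA genes were not analysed, and probe sets were compared between lines and not with each other.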

Other observations

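In the limma F test over lines, 65.7% of all genes differed at an adjusted p under 0.05. The marker lists are short, and their counts were not tested against that share. The lists that were read beside the HOX genes varied between lines as follows. All 10 epithelial and ovarian tumour markers differed between lines, led by EPCAM (4.57 in HEYC2, 4.31 without the array that stood apart, to 14.53 in PEO1), KRT7 (5.94 in OAW42 to 13.33 in PEO1) and KRT19 (6.43 in FUOV1, or 6.40 in HEYC2 without that array, to 13.33 in PEO1). All 6 fibroblast markers differed, led by LUM (2.56 in FUOV1 to 10.37 in OVCAR2), DCN (3.06 in COLO720E to 9.03 in OV7) and COL1A2 (5.62 in JHOS3 to 9.80 in A2780). Of 5 leukocyte markers 4 differed, led by CD68 (6.44 in OAW28 to 10.73 in TYKNU), CD14 (5.56 in EFO21 to 7.90 in CAOV3) and LYZ (2.81 in UWB1.289 to 4.97 in TYKNU). All 5 endothelial markers differed, and PECAM1 (9.79), CDH5 (9.28) and TEK (7.87) were each highest in TYKNU, a line with no HOX gene called in either direction. All 3 mesothelial markers differed, from 5.79 to 9.59 for MSLN, 5.35 to 9.11 for CALB2 and 5.58 in OVCAR2 to 9.0 in DOV13 for LRRN4. Some markers of these lists were mostly under the floor. LYZ, PTPRC and CD3E lay above it in 0 lines and VWF in 1. DCN did in 2, LUM and TEK in 3, KDR in 4 and PECAM1 in 5. Every other marker of these lists did in at least 14.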
